A study of Mustela putorius furo with 10 samples.

Results

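Genes for the synthesis of sterols and fatty acids, together with the regulators that govern them, were followed in peripheral blood mononuclear cells (PBMC, the lymphocytes and monocytes that a density gradient separates from blood) of ferrets kept in the cold. The set was given as 53 gene symbols, and members were matched through the RefSeq name of the sequence that each array probe targets. Of the 53 genes, 33 were on the array by that name. A further gene, EBPL, was named only through the study's own table of sequences, which made 34. Of these 34, 33 passed a filter that asked for a green signal well above background on at least 4 of 10 arrays, out of 26292 genes that passed it in all, and SC5D was on the array but did not pass. The remaining 19 were not matched to the array and are not analysed here, namely SREBF2, SCAP, INSIG1, ACLY, FASN, SCD5, FADS2, AGPAT2, LPIN3, DGAT1, DGAT2, IDI1, LSS, CYP51A1, NSDHL, EBP, STARD4, ABCA1 and MYLIP.

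All ferrets were male and 3 months old, with free access to food. The control group (6 arrays) lived at 22 °C, and the cold group (4 arrays) was kept at 4 °C for 1 week and housed individually. How the controls were housed is not given in the sources used here, so that any difference in housing cannot be told apart from temperature. RNA of each ferret carried the green dye Cy3 and was hybridised on its own array against a pool labelled with the red dye Cy5, which mixed PBMC with other tissues and was the same throughout. Each array came from a different animal, so that precision rests on 10 animals. The study kept more ferrets in each group than were put on arrays. It attributes the smaller number of cold arrays to difficulty in obtaining PBMC from some cold animals.

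Cholesterol is built from acetyl-CoA through mevalonate, farnesyl pyrophosphate and squalene, whereas fatty acids are built from malonyl-CoA and then lengthened and desaturated. Both routes are driven by the SREBP transcription factors, which INSIG proteins hold back in the endoplasmic reticulum when sterols are plentiful. LXR receptors respond to oxidised sterols and switch on genes of cholesterol export as well as the SREBP-1 gene. In blood cells these routes supply membrane lipid, for example when lymphocytes divide, and macrophages rely on export to shed surplus cholesterol.

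Each gene is given in 2 readouts. The ratio is the log2 of Cy3 over Cy5 after loess normalization within the array. A ratio of 0 means the usual ratio of spots of similar brightness on that array, not equal RNA in ferret and pool. Genes described below as low against the pool are low on this scale. Cy3 alone is the log2 green intensity, quantile normalized between arrays, in which the pool plays no part. Changes are cold minus control on the log2 scale with the standard error of limma. The share of spots with Cy3 well above background was 50.4 to 63.5% per array. Cy5 was dimmer, with a median intensity of 44 to 80 on control arrays and of 48, 92, 98 and 152 on cold arrays. Of the 33 members, 27 had Cy3 well above background in a share of at least 0.5 of their spots on all 10 arrays, and 18 had this for Cy5.

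Markers of blood cell types moved between the groups as well. Of the 8 T cell markers measured, 7 were lower in cold in the ratio, and all 8 were lower in Cy3, where their summed intensity was 82933 to 114365 in control and 33035 to 81349.5 in cold. Monocyte markers were higher in 7 of 8 genes in both readouts (summed Cy3 151389 to 244258 in control and 213699 to 321217 in cold). All 6 neutrophil markers (74650.5 to 152199 and 113404 to 240612) and all 6 platelet markers (8397 to 80197 and 28720 to 71931) were higher, all 7 B cell markers were lower (2585 to 19588 and 5017 to 7299), and 4 of 5 red cell markers were lower (10584 to 70249.6 and 1784 to 6427). Of the 5 NK and cytotoxic cell markers measured, 4 were higher in the ratio and 4 lower in Cy3 (15294 to 50880.0 and 11858 to 51543). The mean control ratio was above 0 for 5 of 8 T cell, 6 of 7 B cell, 5 of 5 NK and cytotoxic cell and 6 of 8 monocyte markers, and below 0 for 4 of 5 adipose and liver markers, down to -6.47 for ADIPOQ and -6.99 for FABP4. Of these 5, 4 were lower in cold in the ratio and 3 in Cy3, where FABP4 changed by -0.63, CIDEC by -0.35 and ADIPOQ by -0.34 (summed Cy3 13696 to 23763 in control and 13648 to 21616 in cold). In bulk RNA, fewer cells of a type and less RNA per cell cannot be told apart, and the part of these cell types in the member results was not tested.

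In the ratio, 2 of the 33 members passed the unadjusted threshold of 0.01 that the methods of the study used, against a background of 8.63% of all genes. LPIN1 was lower and HSD17B7 higher (background 3.41% lower and 5.21% higher). None passed an adjusted p of 0.05 (limma with Benjamini-Hochberg adjustment over all genes, background 0%), and the lowest adjusted p of a member was 0.0884. At an unadjusted p under 0.05, 11 of 33 members were counted, 7 lower and 4 higher, against 24.7% of all genes. No member had cold and control ratios that did not overlap, where 5.21% of all genes had such ratios. The median change of the 33 members was -0.08 and that of all genes -0.01, with 21 members lower and 12 higher. The balance of directions rested on the scaling. Of all genes called at 0.01, 39.6% were lower with loess, 57.3% with the processed signals of the scanner software, 53.6% in the deposited table and 81.4% with arrays centred on their median, which moved the median of all genes to -0.43 and left 29 of 33 members lower.

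In Cy3 alone, 7 of the 33 members passed the unadjusted threshold of 0.01 (background 9.81%). Higher in cold were FADS1 and EBPL (background 5.47%), and lower were SCD, SQLE, ACACB, ABCG1 and LPIN1 (background 4.33%). EBPL alone passed the adjusted threshold of 0.05 (background 2.81%), but its Cy3 was above background on 4 of 4 cold and only 2 of 6 control arrays, so that its 4 cold arrays alone met the filter. In addition, LPIN1 alone had groups without overlap (background 7.01%). The median change of the members was -0.07, with 22 lower and 11 higher, beside -0.04 for all genes. With Cy3 scaled to the median of each array, 17 members were lower and 16 higher, and 6.91% of all called genes were lower in place of 44.2%. All 5 lower calls were lost under this scaling (SCD at -0.49, SQLE at -0.40, ACACB at -0.25, LPIN1 at -0.22 and ABCG1 at -0.17), and the 4 members called were all higher, namely FADS1, EBPL, ACSS2 and HMGCS1 (12.1% of all genes). LPIN1 was the member that passed at 0.01 in both readouts.

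**Figure D1:**
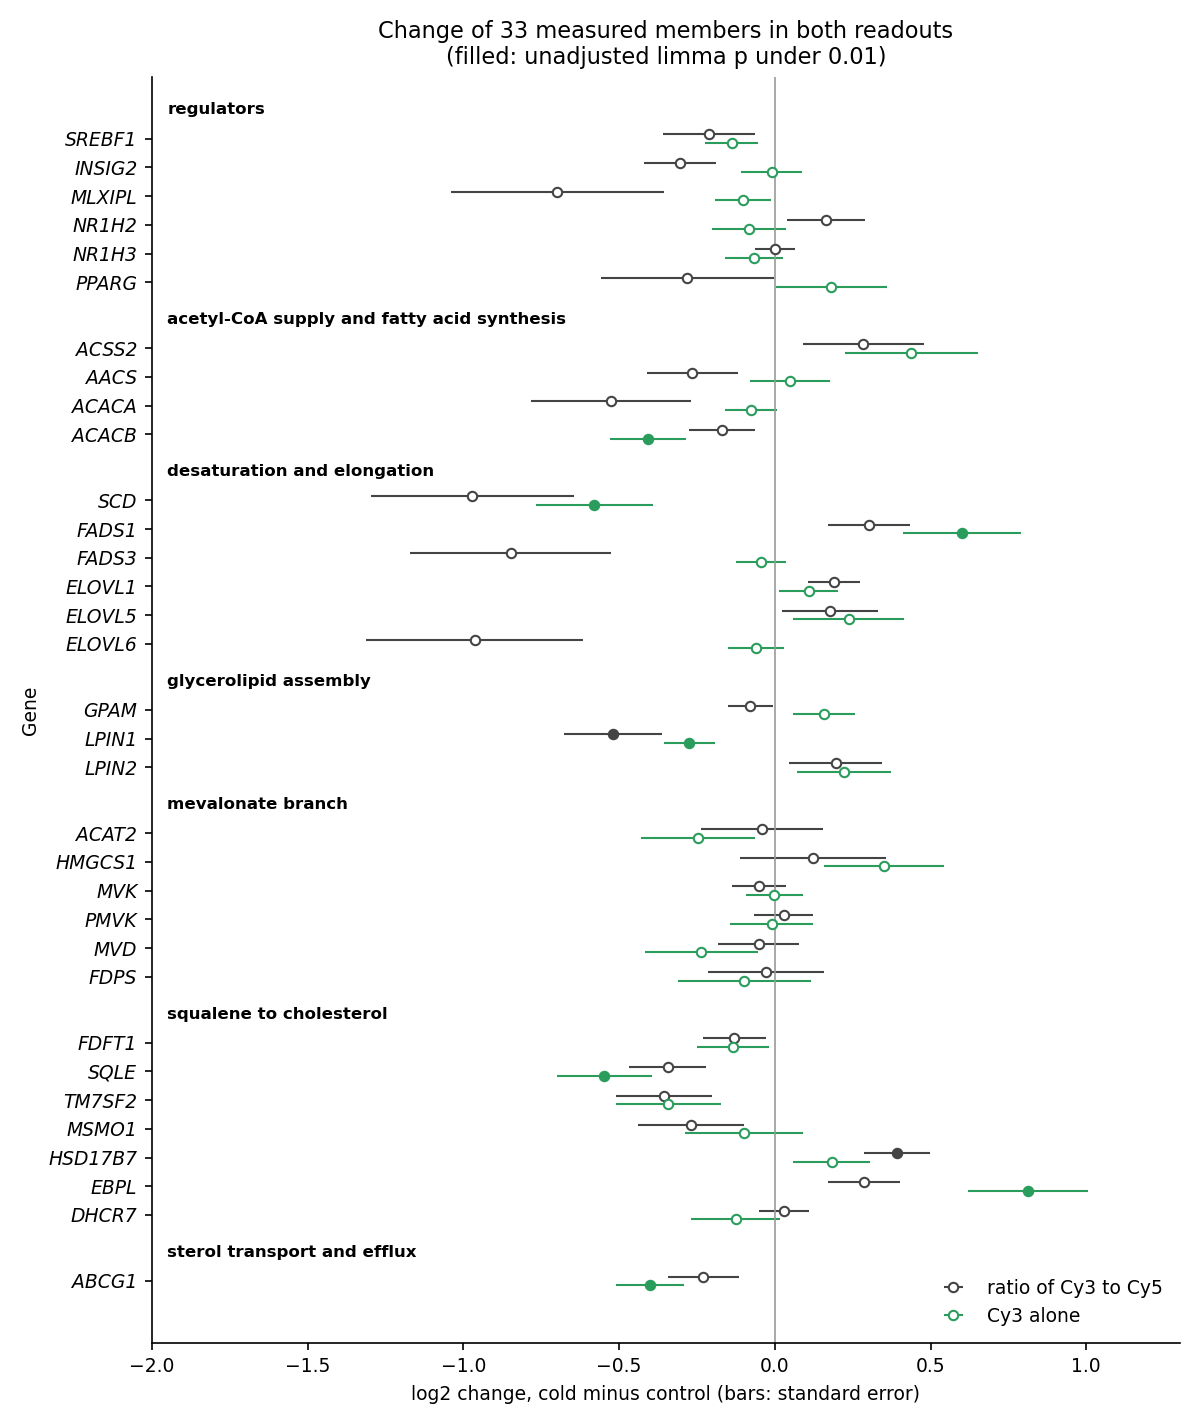
Log2 change in cold against control (horizontal axis, bars are standard errors) of the 33 measured genes, ordered by role, for the ratio of Cy3 to Cy5 (grey) and for Cy3 alone (green), with filled points where the unadjusted limma p was under 0.01. LPIN1 is filled in both readouts, whereas ELOVL6, FADS3 and MLXIPL lie between -0.96 and -0.70 in the ratio and between -0.10 and -0.05 in Cy3 alone.

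None of the 6 regulators that were measured of 9 listed passed at 0.01 in either readout (background 8.63% in the ratio and 9.81% in Cy3). SREBF1, which encodes the SREBP-1 factors that drive lipogenic genes, had a log2 ratio of -0.56, -0.14, -0.51 and -0.47 on cold arrays 1 to 4 and of -0.70 to 0.05 in control (median -0.13). Its groups overlapped, since control replicate 5 lay below every cold array, and the change was -0.21 (standard error 0.15, adjusted p = 0.396, exact permutation p = 0.224). In Cy3 alone it was -0.14 (standard error 0.08, adjusted p = 0.334, exact permutation p = 0.0857). INSIG2, a sterol sensor that retains the SREBP complex, had ratios of -0.75, -0.31, -0.53 and -0.34 in cold and of -0.36 to 0.04 in control (median -0.19). Cold replicates 1 and 3 lay below all control arrays and the other two within their range. The change was -0.30 (standard error 0.12, limma p = 0.0229, adjusted p = 0.147, exact permutation p = 0.0476), but -0.01 in Cy3 alone (standard error 0.10). By the same limit of 0.5 of the spots, Cy5 was above background on 2 control and 2 cold arrays for SREBF1 and on 2 and 3 for INSIG2. The ratio changes depended on the processing, with -0.43 for SREBF1 and -0.71 for INSIG2 with the processed signals and 0.05 and -0.02 in the deposited table.

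Neither LXR gene was called in either readout. NR1H2 (LXR-beta) had ratios of 0.68, 0.04, 0.50 and 0.29 in cold and of 0.02 to 0.39 in control (median 0.19), with a change of 0.16 (standard error 0.13) in the ratio and of -0.08 (standard error 0.12) in Cy3 alone. Its sign thus differed between the readouts, and neither change passed a threshold (exact permutation p = 0.257 and 0.49). NR1H3 (LXR-alpha) lay between 0.03 and 0.14 in cold and between 0.0036 and 0.15 in control, which made a change of 0.00 in the ratio (standard error 0.06) and of -0.07 in Cy3 (standard error 0.09). Its Cy3 was above background in a share of at least 0.5 of the spots on 4 control and 3 cold arrays and its Cy5 on 0 control and 2 cold arrays, so that both sides of this ratio were dim, and the deposited table gave a change of 0.54. MLXIPL, which encodes the glucose-responsive factor ChREBP, had ratios of -2.68, -1.30, -2.46 and -2.05 in cold and of -2.27 to -0.70 in control, a change of -0.70 (standard error 0.34), beside -0.10 (standard error 0.09) in Cy3. The Cy3 of MLXIPL was dim, with a mean control level of 7.47. PPARG, the regulator of fat cell formation, was at -0.28 (standard error 0.28) in the ratio and at 0.18 (standard error 0.18) in Cy3.

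Genes of acetyl-CoA supply and fatty acid synthesis gave 4 measured members of 6 listed, and 1 passed at 0.01, in Cy3 alone (background 9.81%). ACACB, the carboxylase at the mitochondrial membrane whose malonyl-CoA restrains fatty acid oxidation, had a log2 Cy3 of 10.44, 10.65, 10.82 and 10.30 in cold and of 10.73 to 11.16 in control (median 10.96). Cold replicate 3 reached into the control range, and the other 3 cold arrays lay below it. It fell by 0.41 (standard error 0.12, limma p = 0.0063, adjusted p = 0.0846, exact permutation p = 0.0143), but with no filter on dim probes the change was -0.20 and not called. In the ratio, cold values were -0.99, -0.90, -1.03 and -1.08, against -0.996 to -0.47 in control, a change of -0.17 (standard error 0.11, adjusted p = 0.341, exact permutation p = 0.129). It was -0.95 with centring and -0.04 and -0.05 with the processed signals and in the deposited table. Cy5 itself was lower by a log2 change of -0.19 for this gene (exact permutation p = 0.0762), 1 of 4 members with an unadjusted limma p under 0.05 in Cy5 alone, where 8.66% of all genes had one.

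ACACA, the cytosolic carboxylase that makes malonyl-CoA for fatty acid synthesis, had ratios of -1.84, -0.77, -1.58 and -1.05 in cold and of -1.35 to -0.36 in control, a change of -0.53 (standard error 0.26). In Cy3 alone it was at -0.08 (standard error 0.08), and its Cy3 was above background in a share of at least 0.5 of the spots on 3 control arrays and 1 cold array, so that the green signal of this gene was close to the limit of detection. ACSS2, which makes acetyl-CoA from acetate, was at 0.28 (standard error 0.19) in the ratio and 0.44 (standard error 0.21) in Cy3, with all 8 probes higher in both. AACS, which makes acetoacetyl-CoA from ketone bodies, was at -0.26 (standard error 0.15) in the ratio and 0.05 (standard error 0.13) in Cy3.

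Desaturation and elongation genes moved in both directions. Of 6 measured members of 8 listed, 3 were higher and 3 lower in each readout. SCD, the stearoyl-CoA desaturase that puts the first double bond into saturated fatty acids, had ratios of -3.41, -2.32, -3.62 and -3.40 in cold and of -2.99 to -1.68 in control (median -1.92). Cold replicates 1, 3 and 4 lay below all control arrays, and cold replicate 2 lay among them. The change of the ratio was -0.97 (standard error 0.33, limma p = 0.0124, adjusted p = 0.122, exact permutation p = 0.0476), which is 0.51 times the control ratio. In Cy3 alone, cold values were 9.13, 9.41, 8.77 and 8.87 and control values 9.14 to 10.04 (median 9.56), with cold replicate 2 inside the control range and replicate 1 level with its lower end. SCD fell by 0.58 in this readout, or 0.669 times the control level (standard error 0.19, limma p = 0.0098, adjusted p = 0.101, exact permutation p = 0.0286). When 1 array was left out, this call at 0.01 held only without control replicate 4 or cold replicate 2 (limma p otherwise up to 0.0358).

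FADS1, the delta-5 desaturase that completes arachidonic acid, was the member of this group that rose at the threshold of 0.01, in Cy3 alone. Its log2 Cy3 was 10.06, 10.29, 10.13 and 10.37 in cold and 9.12 to 10.08 in control (median 9.64). The lowest cold array lay only just below the highest control array, control replicate 6. FADS1 rose by 0.60 in Cy3 (standard error 0.19, limma p = 0.0084, adjusted p = 0.0944, exact permutation p = 0.019), which is 1.52 times the control level. When 1 array was left out, this call held only without control replicate 3 or 6 (limma p otherwise up to 0.0270). It was also lost with no filter on dim probes. In the ratio, cold arrays were at -0.10, 0.10, 0.19 and 0.25 and control arrays at -0.58 to 0.11, a change of 0.30 (standard error 0.13, adjusted p = 0.189, exact permutation p = 0.0619), which was -0.07 with arrays centred on their median, where the median of all genes was -0.43. All 20 probes of FADS1 were higher in cold in both readouts. Cy5 was higher for FADS1 too, by 0.12 (exact permutation p = 0.0048).

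The other genes of the group gave no call in the main fits. ELOVL6 and FADS3 were called at 0.01 in the ratio with the filter on all 10 arrays, array weights or replicate number as a block. Both were called also without control replicate 5 or cold replicate 2, and ELOVL6 in the deposited table and without control replicate 4. ELOVL6, which lengthens palmitate to stearate, had ratios of -3.90, -2.74, -3.45 and -3.35 in cold and of -3.28 to -1.75 in control, a change of -0.96 (standard error 0.35, adjusted p = 0.137, exact permutation p = 0.0524), but of -0.06 (standard error 0.09) in Cy3. FADS3, a desaturase that acts on sphingoid bases, had ratios of -2.54, -1.09, -2.15 and -1.92 in cold and of -2.01 to -0.58 in control, a change of -0.85 (standard error 0.32, adjusted p = 0.149, exact permutation p = 0.0619), but of -0.05 (standard error 0.08) in Cy3. For both genes cold replicate 2 was the highest cold ratio, within the control range. Their Cy3 was dim, with mean control levels of 7.96 (ELOVL6) and 7.51 (FADS3), beside 7.17 for EBPL, which was near background. A Cy3 change near 0 at such levels does not show that their RNA was unchanged. ELOVL1, which makes very long saturated chains, was at 0.19 (standard error 0.08, adjusted p = 0.191, exact permutation p = 0.0286) in the ratio, with Cy5 above background on 0 control and 2 cold arrays, and 0.11 (standard error 0.09) in Cy3. ELOVL5, which lengthens polyunsaturated chains, was at 0.18 (standard error 0.15) and 0.24 (standard error 0.18).

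Of the 3 members of glycerolipid assembly measured of 7 listed, LPIN1 was lower in both readouts. LPIN1 encodes lipin-1, a phosphatidate phosphatase on the route to triacylglycerol that also acts as a transcriptional coactivator. Its log2 ratio was -2.34, -1.81, -2.31 and -2.10 in cold and -2.10 to -1.34 in control (median -1.52). Cold replicates 1 and 3 lay well below all control arrays, replicate 4 was level with the lowest, control replicate 5, and replicate 2 lay above it. The ratio fell by 0.52 (standard error 0.16, limma p = 0.0069, adjusted p = 0.104, exact permutation p = 0.019). In Cy3 alone, cold values were 8.72, 8.44, 8.54 and 8.59 and control values 8.77 to 9.002 (median 8.83), so that the cold arrays lay below the control arrays without exception. The fall in Cy3 was a log2 change of -0.27, or 0.827 times the control level (standard error 0.08, limma p = 0.0064, adjusted p = 0.0851, exact permutation p = 0.0048, the smallest that 210 splits of the arrays allow).

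All 12 probes of LPIN1, on 3 target sequences, were lower in cold in both readouts. The sequences changed by -0.55, -0.48 and -0.54 in the ratio and by -0.29, -0.26 and -0.28 in Cy3. The call in the ratio was lost (unadjusted limma p up to 0.0253) without control replicate 1, 2, 3 or 6 or cold replicate 1, 3 or 4, whereas the change stayed between -0.63 and -0.45. In Cy3 the call was likewise lost without control replicate 2, 3, 4 or 6 or cold replicate 2, 3 or 4 (p up to 0.0271), with a change of -0.33 to -0.23. LPIN2, which encodes another lipin, was at 0.20 (standard error 0.15) in the ratio and 0.22 (standard error 0.15) in Cy3. GPAM, the mitochondrial acyltransferase of the first step of the route, was at -0.08 (standard error 0.07) and 0.16 (standard error 0.10).

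**Figure D2:**
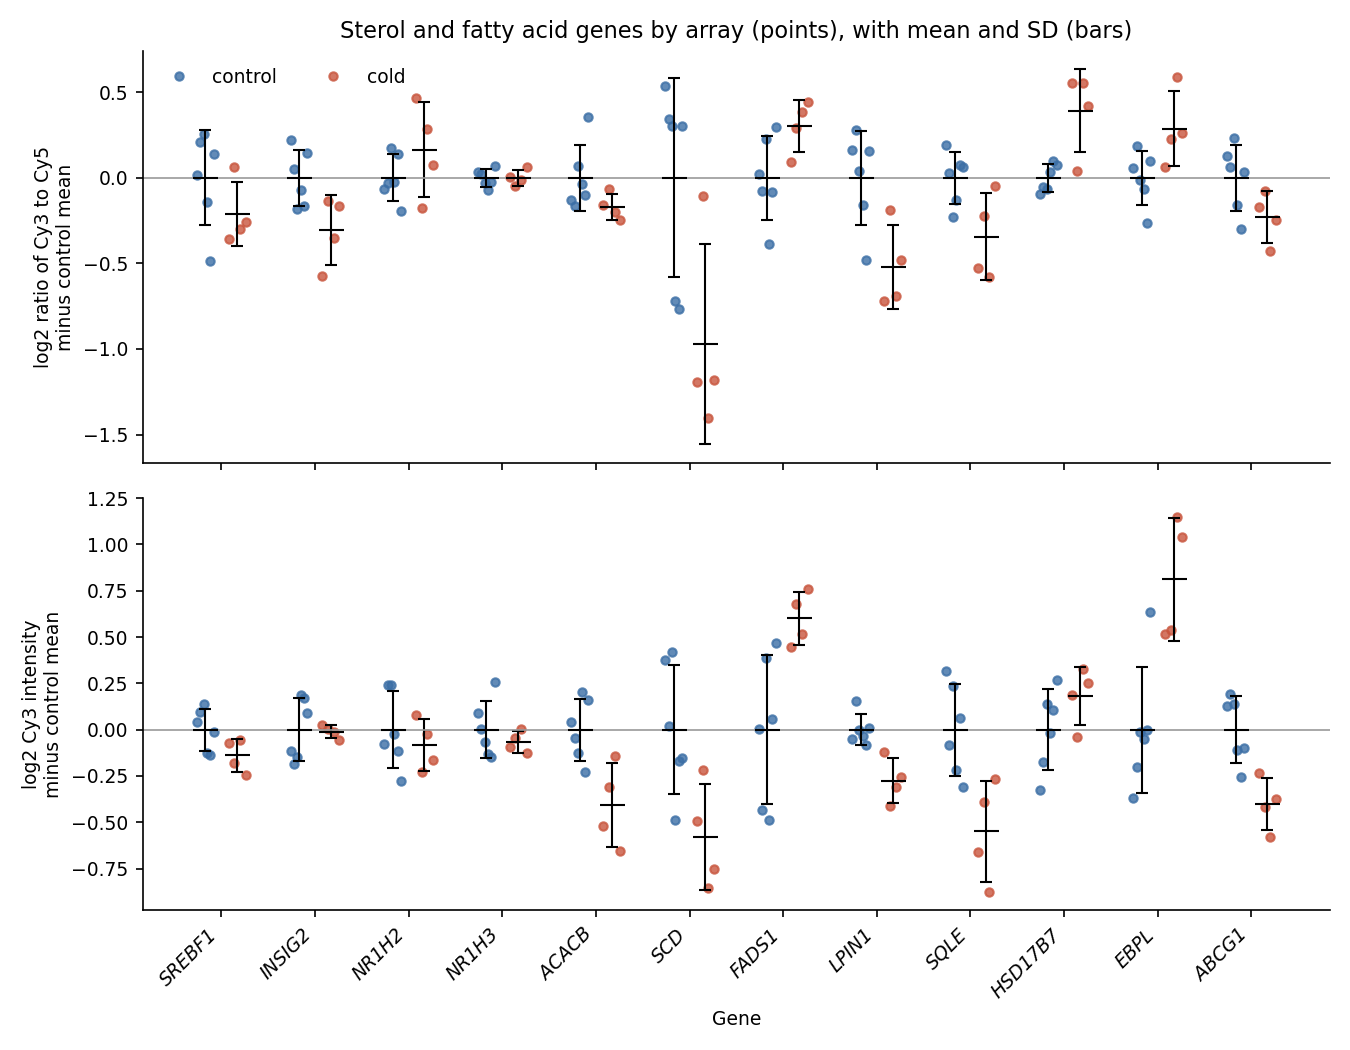
Each array's log2 ratio (upper panel) and log2 Cy3 intensity (lower panel) minus the mean of the control arrays, for the 12 genes described in full, with 6 control arrays in blue and 4 cold arrays in red. Black bars are the mean and SD of each group. Only in the lower panel for LPIN1 do all 4 cold points lie beyond all 6 control points, and SCD shows the widest spread in the ratio.

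The mevalonate branch gave small changes in the ratio, and none of its 6 measured members of 7 listed passed at 0.05 in either readout. HMGCS1 was called at 0.01 in Cy3 with median scaling and without control replicate 6, where MVD was called too. Changes of the ratio ran from -0.05 (MVD) to 0.12 (HMGCS1), with a median of -0.03. HMGCS1, the cytosolic synthase that feeds HMG-CoA to the route, had a log2 Cy3 of 11.93, 11.72, 12.33 and 11.91 in cold and of 11.21 to 12.33 in control (median 11.53), a change of 0.35 (standard error 0.19). Control replicate 6 was as high as the highest cold array, and the other 5 control arrays lay below all cold arrays. ACAT2, which joins acetyl-CoA units, was at -0.04 in the ratio and -0.25 in Cy3 (standard errors 0.20 and 0.18). The kinases MVK and PMVK were at -0.05 and 0.03 in the ratio (standard errors 0.09 and 0.10) and at -0.0013 and -0.0093 in Cy3. MVD, the decarboxylase after them, was at -0.24 in Cy3 (standard error 0.18), and FDPS, which makes farnesyl pyrophosphate, at -0.03 in the ratio and -0.10 in Cy3 (standard errors 0.19 and 0.21).

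From squalene to cholesterol, 7 of 12 listed members were measured. HSD17B7 passed at 0.01 in the ratio (background 8.63%), and SQLE and EBPL did in Cy3 alone (background 9.81%). SQLE, the squalene epoxidase and an early oxygen-dependent step, had ratios of -0.17, 0.14, -0.22 and 0.32 in cold and of 0.13 to 0.56 in control (median 0.41). Cold replicates 1 and 3 lay below all control arrays. The change of the ratio was -0.34 (standard error 0.12, limma p = 0.0172, adjusted p = 0.133, exact permutation p = 0.0333). It was -0.68 with the processed signals, -0.76 in the deposited table and -1.17 with centring. In Cy3 alone the cold arrays were at 10.29, 10.56, 10.08 and 10.69 and the control arrays at 10.64 to 11.27 (median 10.94). SQLE fell by 0.55 in Cy3, or 0.684 times the control level (standard error 0.15, limma p = 0.0041, adjusted p = 0.072, exact permutation p = 0.0143), and cold replicate 4 was the only cold array within the control range.

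HSD17B7, which encodes the 3-ketosteroid reductase of the C4 demethylation complex, had ratios of 0.62, 0.11, 0.62 and 0.49 in cold and of -0.03 to 0.17 in control (median 0.06). Cold replicates 1, 3 and 4 lay above all control arrays and replicate 2 lay within their range. The ratio rose by 0.39 (standard error 0.11, limma p = 0.0035, adjusted p = 0.0884, exact permutation p = 0.0143), or 1.31 times the control level. It was 0.65 in the deposited table and 0.26 with centring or with no filter on dim probes. Cy3 alone gave 8.44, 8.21, 8.58 and 8.51 in cold and 7.93 to 8.52 in control, a change of 0.18 (standard error 0.12, adjusted p = 0.384, exact permutation p = 0.181). Cy5 of HSD17B7 was above background in a share of at least 0.5 of the spots on 2 control and 2 cold arrays, so that the denominator of its ratio was dim, and the Cy5 change was -0.09 (exact permutation p = 0.0238). Without cold replicate 2 the change of the ratio was 0.51, and without cold replicate 1 or 3 it was no longer called (p up to 0.0138).

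EBPL, a relative of the sterol isomerase gene EBP, was near background in control. Its Cy3 was above background in a share of at least 0.5 of the spots on all 4 cold arrays but on only 2 of 6 control arrays, so that the size of its change in Cy3 is uncertain. The cold arrays were at 7.69, 7.71, 8.32 and 8.22 and the control arrays at 6.81 to 7.81 (median 7.14). Control replicate 6 lay above cold replicates 1 and 2, and the other 5 control arrays lay below all cold arrays. The measured difference was 0.81 (standard error 0.19, limma p = 0.0013, adjusted p = 0.0495, exact permutation p = 0.0143). In the ratio the cold arrays were at -0.23, -0.06, 0.30 and -0.03 and the control arrays at -0.55 to -0.10, a change of 0.29 (standard error 0.12, adjusted p = 0.166, exact permutation p = 0.0286). The ratio change was 0.93 with the processed signals, 0.74 with centring and 0.98 in the deposited table, and Cy5 was above background on 1 control and 2 cold arrays. All 3 of its probes were higher in cold in both readouts. Since the gene entered the test through its cold arrays, its call is given as a description, and the adjusted call was lost without any 1 array other than control replicate 6 or cold replicate 1.

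The remaining genes of the branch gave no call. TM7SF2, a sterol C14 reductase, was at -0.35 (standard error 0.15, adjusted p = 0.187, exact permutation p = 0.0524) in the ratio and -0.34 (standard error 0.17) in Cy3. MSMO1, the C4 methylsterol oxidase, was at -0.27 and -0.10 (standard errors 0.17 and 0.19). FDFT1, the squalene synthase, was at -0.13 in both (standard errors 0.10 and 0.12), and DHCR7, which performs a last reduction to cholesterol, at 0.03 and -0.13 (standard errors 0.08 and 0.14).

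Of 4 listed genes of sterol transport and efflux, ABCG1 was measured. ABCG1 is an LXR target that passes cholesterol to high-density lipoprotein. Its log2 Cy3 was 12.04, 11.86, 11.70 and 11.90 in cold and 12.02 to 12.47 in control (median 12.29). Cold replicate 1 lay just above control replicate 5, and the other cold arrays lay below all control arrays. ABCG1 fell by 0.40 in Cy3, or 0.758 times the control level (standard error 0.11, limma p = 0.0036, adjusted p = 0.0689, exact permutation p = 0.019). In the ratio, cold arrays were at -0.40, -0.30, -0.66 and -0.47 and control arrays at -0.53 to 0.0015, a change of -0.23 (standard error 0.11, adjusted p = 0.239, exact permutation p = 0.081). It was -0.71 in the deposited table and -1.23 with centring. Cy5 was lower for ABCG1 as well, by a log2 change of -0.13 (exact permutation p = 0.019).

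The probes of a gene mostly moved together. Every target sequence had 4 probes on the array, and 15 members had 2 or more measured sequences, many of them transcript variants of 1 gene that share sequence and so are not independent. Of these 15, only NR1H3 had sequence changes of both signs in the ratio, and NR1H3 and HSD17B7 had them in Cy3. The sequences of SCD were the most unequal of the called genes. On the first, Cy3 changed by -0.87 (standard error 0.21) and the ratio by -1.15, and on the second by -0.29 (standard error 0.18) and -0.80, with all 8 probes lower. The first was much brighter, with a mean control Cy3 of 11.09 beside 8.17 on the second, and the gene value averages both. Of the sequences of HSD17B7, one with 4 measured probes changed by 0.45 in the ratio and 0.25 in Cy3, and the other, with 1 measured probe, by 0.16 and -0.10. The 4 sequences of ABCG1 changed by -0.44 to -0.37 and the 4 of ACACB by -0.44 to -0.36 in Cy3.

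**Figure D3:**
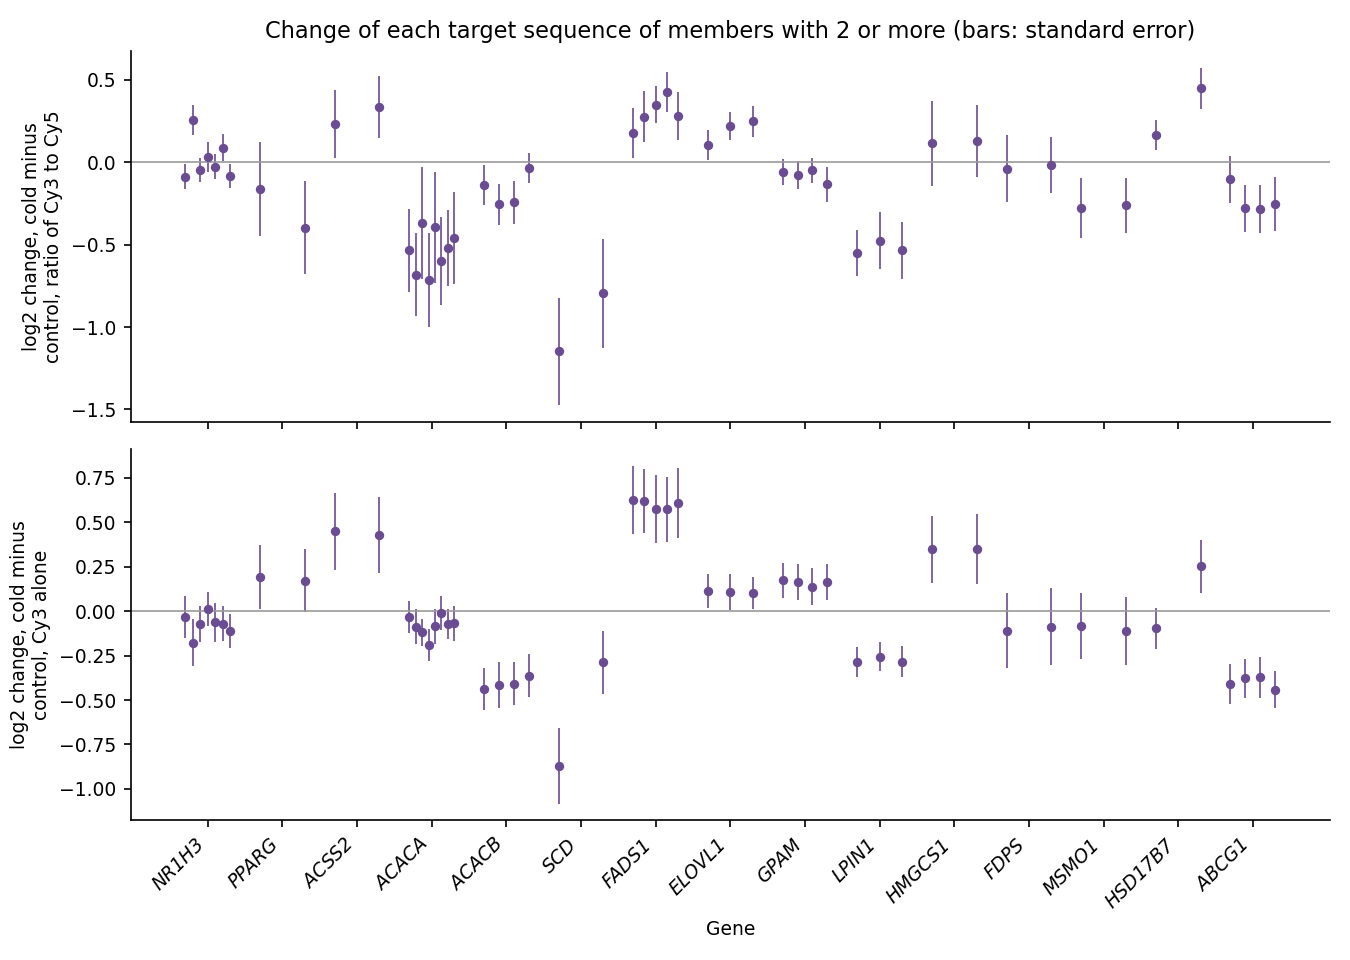
Log2 change of each target sequence (points, with standard errors) for the 15 genes with 2 or more measured sequences, in the ratio (upper panel) and in Cy3 alone (lower panel). All sequences of LPIN1, SCD and ABCG1 lie below 0 in both panels, while the sequences of SCD lie furthest apart in Cy3, at -0.87 and -0.29.

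The 3 widest gaps between the readouts, those of ELOVL6, FADS3 and MLXIPL, were of members that stood low against the pool. Of the 33 members, 8 had a mean control ratio under -1, a limit chosen after the values were seen, namely AACS, PPARG, ELOVL6, SCD, LPIN1, HMGCS1, MLXIPL and FADS3. In all 8 the change of the ratio was below the change of Cy3, with medians of -0.61 and -0.05. In the other 25 members the medians were -0.04 and -0.08, and 12 of 25 had a ratio change below the Cy3 change. All 1691 genes with a control ratio under -1 had medians of -0.48 and -0.09, so that this difference was shared by genes outside the set. Array by array, the median ratio of the 8 members was lower where the pool channel was brighter, in both groups. It was -2.48 and -2.63 on control replicates 4 and 5, whose median Cy5 intensity was 62 and 80, and -1.81 to -1.60 on the other control arrays, at 44 to 49. On cold arrays it was -2.07 on replicate 2, with a Cy5 of 48, and -3.04 to -2.72 on the others, at 92 to 152. The part of Cy5 brightness in the ratio changes was not tested.

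**Figure D4:**
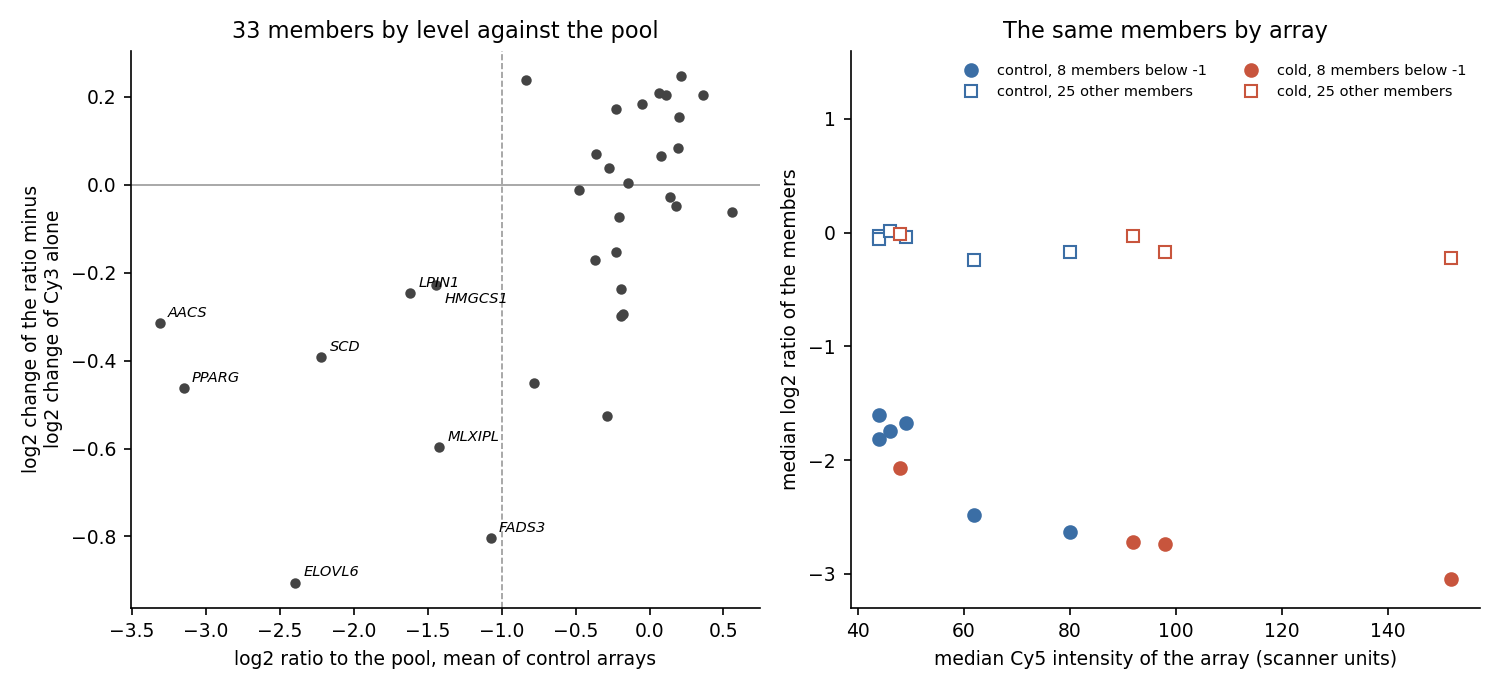
Left, the difference between the log2 change of the ratio and that of Cy3 alone (vertical axis) against the mean log2 ratio of control arrays (horizontal axis) for 33 members, with a dashed line at -1. All 8 members left of the line lie below 0. Right, the median log2 ratio of these 8 members (circles) and of the 25 others (squares) on each array against the median Cy5 intensity of the array, where circles are lowest on the array with the brightest pool channel (152) and cold replicate 2 (48) lies closest to the control arrays.

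Both positions on the slide held arrays of both groups, position 1 with 4 control and 2 cold arrays and position 2 with 2 of each. The called members were chosen on these same arrays, so that their changes within each position are given only as a description. LPIN1 changed by -0.57 and -0.37 in the ratio at positions 1 and 2, and by -0.29 and -0.24 in Cy3. HSD17B7 changed by 0.31 and 0.47 in the ratio and by 0.14 and 0.17 in Cy3, and EBPL by 0.08 and 0.56 in the ratio. In Cy3, EBPL changed by 0.52 and 1.10, FADS1 by 0.68 and 0.41, SCD by -0.29 and -0.93, SQLE by -0.45 and -0.72, ACACB by -0.51 and -0.22, and ABCG1 by -0.35 and -0.42. With position as a block, LPIN1 and HSD17B7 were the members called in the ratio (7.86% of all genes), as without it.

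Genes of the same pathways outside the set were counted beside the members. Of 113 listed, 69 were measured, and 6 of the 69 passed at 0.01 in the ratio, 3 higher and 3 lower, near the background of 8.63% of all genes, with a median change of -0.06. In Cy3 alone, 8 of 69 passed at 0.01, 5 higher and 3 lower (background 9.81%), and 1 passed the adjusted threshold (background 2.81%). FITM2, a protein of lipid droplet formation, fell by 0.77 in the ratio (adjusted p = 0.0866) and PNPLA3, a lipid droplet lipase, by 0.72 (adjusted p = 0.077). Their Cy3 changes were -0.22 and -0.40, and both stood low against the pool. STARD5, a sterol carrier, rose by 0.53 and HACD4, a dehydratase of fatty acid elongation, by 0.54, both without overlap between the groups, and the sterol transporter gene ABCG4 by 0.56 (adjusted p = 0.0765, 0.0741 and 0.0741). Their changes in Cy3 were 0.58, 0.59 and 0.51.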

How the data were processed

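For 10 arrays, the authors deposited Agilent scanner output with spot intensities that were not normalized, and a table with 1 log2 value for each target sequence and array. Each of the 10 arrays lay on its own slide, at position 1 or 2, and all were scanned on the same day. Median spot intensities were background-corrected (normexp, offset 50, limma 3.58.1, R 4.3.3). Control spots were removed, log2 ratios of Cy3 to Cy5 were loess-normalized within each array (span 0.3, 4 iterations), and outlier spots were dropped. The design had planned mean intensities, which the files used here do not carry. Spots were averaged per probe and probes per gene. Probes entered when Cy3 was flagged well above background in a share of 0.5 or more of their spots, on 4 or more arrays (111051 probes, 26292 genes). Of 45328 target sequences, 21104 were named through RefSeq (assembly ASM1176430v1.1). Cy3 and Cy5 alone were quantile normalized.

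Groups were compared by limma's lmFit and eBayes over all genes with Benjamini-Hochberg adjustment, and single genes by two-sided exact permutation over 210 splits. The test was tested on simulated data. Members and lists were chosen with earlier results of these data known. Named in full were members with an unadjusted p under 0.01 in the ratio or in Cy3 or without overlap in the ratio, LPIN1 and EBPL, which the study lists, and the measured sterol sensor, LXR and efflux genes. Other members are given by role. Context genes were named at an unadjusted p under 0.01 in the ratio, except 1 that is counted but not reported here. Alternatives were the deposited table, Cy3 alone, signals as processed by the scanner, omitted background correction, arrays centred on the median, other filters on dim probes, the median over probes, single target sequences, array weights, the methods' t-test, blocks for slide position or replicate number, and each array left out. No sequences are printed, because the files used here hold none.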

Additional observations from a re-analysis of the deposited data

Results flagged for a closer look

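Among the 12 genes described in full, 24 groups of arrays were examined for 1 array far from the others, and 1 was found. The limit of the rule is defined to flag about 1 in 20 by chance, a rate that was not measured here. The log2 ratio of SCD on cold replicate 2 was -2.32, while the other 3 cold arrays lay between -3.62 and -3.40. This array also had the dimmest pool channel of the cold group, with a median Cy5 intensity of 48. Without it, the change of the SCD ratio was -1.26. In Cy3 alone the same array was the highest of the cold group, at 9.41, beside 9.13 on cold replicate 1.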

How the results depend on the processing

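Under the 14 other settings of the ratio beside the main one, not counting single arrays left out, 6 gave a count of 2 members at an unadjusted limma p under 0.01 (4.13 to 8.64% of all genes), but only 3 of these called HSD17B7 and LPIN1 again. The others called LPIN1 and SQLE (processed signals), EBPL and ELOVL6 (deposited table), and HSD17B7 and SCD (target sequences, each gene at its sequence of brightest mean). LPIN1 was not called in the ratio with the methods' t-test, run here on the loess ratios, or with the deposited table. It was not called either with the median over probes, its brightest target sequence or centring (all changes -0.98 to -0.48). Its 2 other sequences passed at 0.01, and the study's own t-test, on its own values, lists LPIN1 as lower at 0.01. HSD17B7 was not called with processed signals, centring, the deposited table or Cy3 alone (0.18 to 0.65). Without background subtraction the count was 3 (8.18% of all genes). The count was 1 with arrays centred on the median ratio (4.41%), with the median over probes (8.59%) and with the methods' t-test (6.55%). It was 4 of 29 with the filter on all 10 arrays (9.34% of all genes), 5 with array weights (11.0%) and 7 with Cy3 alone (9.81%), where 1 passed the adjusted threshold. Centring moved the median of the members to -0.74 and the deposited value table to -0.24. The count over all genes was 1498 with the processed signals, 1159 with centring and 1085 with the deposited table. Scaling Cy3 to the median in place of quantiles gave 4 members at 0.01 (12.1% of all genes) and 2 after adjustment (EBPL and FADS1, 8.24%), all higher in cold. No filter on dim probes gave 4 and 0 (7.48% and 0%), with SCD, FADS1 and ACACB (-0.20) no longer called. The causes were not tested.

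Signs turned only for changes that were not called at 0.01 in the readout concerned. NR1H3 was at -0.051 with processed signals, -0.018 without background subtraction, -0.065 in Cy3 alone and -0.0059 with array weights, and between -0.020 and 0.018 with single arrays left out. FADS1 was at -0.071 and NR1H2 at -0.32 with centring, where the median of all genes was -0.43. NR1H2 was at -0.083 in Cy3 alone and at 0.0095 with Cy3 scaled to the median, SREBF1 at 0.052 in the deposited table, and INSIG2 in Cy3 alone between -0.048 and 0.027 with single arrays left out.

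Leaving out 1 array gave 0 to 5 members at 0.01 in the ratio (0 without cold replicate 1 or 3, with 6.34% and 4.83% of all genes, and 5 without control replicate 5 or cold replicate 2, with 12.7% and 12.9%) and 0 to 2 after adjustment (SCD and HSD17B7 without cold replicate 2, 4.82% of all genes), a median of -0.20 to -0.060, and 1271 to 3380 genes over all. In Cy3 alone it gave 2 members at 0.01 (without cold replicate 3, 6.10% of all genes) to 6 (without control replicate 6, 12.7%), and 0 to 3 after adjustment (3 without control replicate 6, 6.38%). The call of SCD in Cy3 held only without control replicate 4 or cold replicate 2, and that of FADS1 only without control replicate 3 or 6. SQLE lost it without cold replicate 1 or 3, ABCG1 without cold replicate 2 or 3, and ACACB without control replicate 1, 4 or 6 or cold replicate 1 or 4.

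With the replicate number as a block (replicate block), 4 members passed at 0.01 in the ratio, namely ELOVL6, FADS3, LPIN1 and SCD (9.32% of all genes), and HSD17B7 was at 0.44 and no longer called. Deviations of same-numbered arrays correlated at -0.30 to 0.54, and 0 of the 4 cold arrays correlated best with the control array of its own number. So few correlations cannot decide whether arrays of the same number share more than the number. The precision is limited by 4 cold arrays and, for EBPL, ACACA and NR1H3 among others, by a signal near background.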
